A study of Mus musculus with 6 samples.

Results

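Fc receptors bind the constant part of antibodies, and 7 mouse genes of this family for IgG and IgE are described here by name. They are the activating IgG receptors Fcgr1, Fcgr3 and Fcgr4, the inhibitory IgG receptor Fcgr2b, the signalling chain Fcer1g, the neonatal receptor Fcgrt and the low-affinity IgE receptor Fcer2a. All 7 are among the 55291 genes of the deposited table. The libraries are polyadenylated RNA from whole liver tumours of mice, labelled RIL-175/PD-1R. RIL-175 cells come from a murine hepatocellular carcinoma, and what PD-1R stands for is not explained in the labels. Cre_PD1 (n = 3) are tumours of LysM-Cre mice, and MKO_PD1 (n = 3) are tumours of mice with Trem2 knocked out in myeloid cells. Both groups received anti-PD-1, which blocks a T cell checkpoint, and the controls also carry the Cre. The LysM promoter drives Cre in myeloid cells (neutrophils, monocytes, macrophages), while other host cells and the tumour cells keep Trem2. Age, sex and the deleted part of Trem2 are not given in the sources used here. The comparison asks how loss of myeloid Trem2 changes tumours under anti-PD-1.

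Fcgr1 is the high-affinity IgG receptor of monocytes and macrophages. Fcgr3 and Fcgr4 bind immune complexes, Fcgr3 on most myeloid cells and natural killer cells and Fcgr4 on monocytes, macrophages and neutrophils. These receptors signal through Fcer1g, the common gamma chain, whose immunoreceptor tyrosine-based activation motif (ITAM) recruits the kinase Syk. Fcgr2b carries an inhibitory motif (ITIM) that recruits the phosphatase SHIP1, and it is made by B cells, myeloid cells and the sinusoidal endothelium of liver. Fcgrt protects IgG and albumin from breakdown inside cells, and hepatocytes, endothelium and macrophages make it. Fcer2a, also called CD23, is a lectin of B cells. Trem2 itself signals through Tyrobp, a chain related to Fcer1g.

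The opposed motifs that divide the family are short stretches of coding sequence. They are shown from the GENCODE M21 transcripts, with the codons of the signalling tyrosines in capitals, because they set apart the activating and the inhibitory side of the ratios below. The first lies at codons 65 to 79 of Fcer1g-201 and the second at codons 317 to 322 of Fcgr2b-201.
Fcer1g ITAM: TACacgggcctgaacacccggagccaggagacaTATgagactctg
Fcgr2b ITIM: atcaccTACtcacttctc
The ITAM has 2 such codons and the ITIM has 1. The inhibitory stretch was found in 4 of 4 complete coding transcripts of Fcgr2b. The ITAM pattern was found in Fcer1g-201 and not in Fcer1g-203, the other complete transcript, nor in any complete transcript of the other members. The loose ITIM pattern also matched once in Fcgr1, Fcgr4 and Fcer1g, and a match of letters is not a working site.

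Upstream sequences of 4 members are shown because the levels of the IgG receptor genes and of Fcgrt differed in which library was highest. Each is 120 bases ending at a RefSeq transcription start (GRCm38.p6), read 5′ to 3′ along the gene. Of the 7 members, 7 had a RefSeq promoter sequence. Capitals mark matches, on either strand, to 6 strings that were picked after a wider look at these windows: GAGGAA and GGAAGT (cores bound by Ets factors such as PU.1), TTCNNNGAA (bound by STAT factors), GAAA repeated after any 2 bases (bound by interferon regulatory factors), TGANTCA (bound by AP-1) and TATAAA. Matches of different strings may overlap.
Fcgr1, minus strand, chr3:96293970-96294089: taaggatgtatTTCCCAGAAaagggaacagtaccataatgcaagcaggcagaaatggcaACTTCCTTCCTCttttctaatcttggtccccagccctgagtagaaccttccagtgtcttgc
Fcgr4, plus strand, chr1:171018806-171018925: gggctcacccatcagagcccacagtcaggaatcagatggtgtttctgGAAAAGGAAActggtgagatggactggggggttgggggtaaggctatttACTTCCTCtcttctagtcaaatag
Fcgr3, minus strand, chr1:171059404-171059523: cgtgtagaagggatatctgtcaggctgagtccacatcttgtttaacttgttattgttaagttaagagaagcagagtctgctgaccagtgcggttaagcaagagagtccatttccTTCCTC
Fcgrt, minus strand, chr7:45103823-45103942: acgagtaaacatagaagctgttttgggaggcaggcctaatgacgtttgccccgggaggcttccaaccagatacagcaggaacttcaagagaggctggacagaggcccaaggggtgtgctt
Within 250 bases before the start, GAGGAA was found in Fcgr1, Fcgr3 and Fcgr4, and in 23.3% of all 32851 RefSeq windows. GGAAGT was found in Fcgr1, Fcgr2b, Fcgr4 and 1 of the Fcer2a windows, against 19.7% of all windows. TTCNNNGAA was found only in Fcgr1 among the members (7.02% of all windows) and the GAAA repeat only in Fcgr4 (2.98%). TGANTCA and TATAAA were found only in windows of Fcer2a, against 6.75 and 12.4% of all windows. None of the 6 strings was found in Fcer1g or Fcgrt. A match is a description of letters, not a binding site.

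Depth and tissue content differed between the libraries. Recovered reads ranged from 26747481 to 34265123 per library. Trem2, the targeted gene, was at 10.5, 16.5 and 14.9 TPM in Cre_PD1 replicates 1, 2 and 3 and at 7.68, 18 and 6.81 TPM in MKO_PD1 replicates 1, 2 and 3 (TPM is a level per exon length, with each library rescaled to sum to 1000000). The library labelled MKO_PD1 replicate 2 thus had the highest Trem2 of the 6, against its label, and is called by that label throughout. Between the groups the log2 difference was -0.44 (SE 0.40, limma adjusted p = 0.432). Without that library it was -0.84 and passed (limma adjusted p = 0.045), in a fit where 38.0% of all genes passed as lower. Reads summed over a whole gene give no measure of a deletion within it. The 11 hepatocyte markers in the table summed to 9205 to 19953 TPM in Cre_PD1 and to 107602, 24965 and 73881 TPM in MKO_PD1 replicates 1, 2 and 3. The same library stood apart from the other libraries of its group in macrophage, monocyte and neutrophil markers. The group differences of the Fc receptor genes, and of some other genes, are therefore given with and without that library. The 14 macrophage markers summed to 2961 to 3871 TPM in Cre_PD1 and to 3519, 7401 and 3850 TPM in MKO_PD1 replicates 1, 2 and 3. In bulk tumour RNA, fewer cells of a type and less RNA per cell cannot be told apart.

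The 3 activating receptor genes, Fcgr2b and Fcer1g were all highest in MKO_PD1 replicate 2, at 2 to 2.82 times the next highest library, and their groups overlapped. No member passed the test between the groups, where 0.0121% of all 16506 genes tested did (2 genes; limma, adjusted p under 0.05), 0.00606% as higher in MKO_PD1 and 0.00606% as lower. At an unadjusted p under 0.05, 1 member (Fcgrt) and 4612 of all 16506 genes tested passed. A total of 6 of the 7 members had enough signal to be tested, all with a log2 difference above 0, while the median over all tested genes was -0.42. Fcgrt was the only member whose groups did not overlap, higher in MKO_PD1, as were 10.1% of all genes tested, while 28.9% lay lower without overlap.

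**Figure D1:**
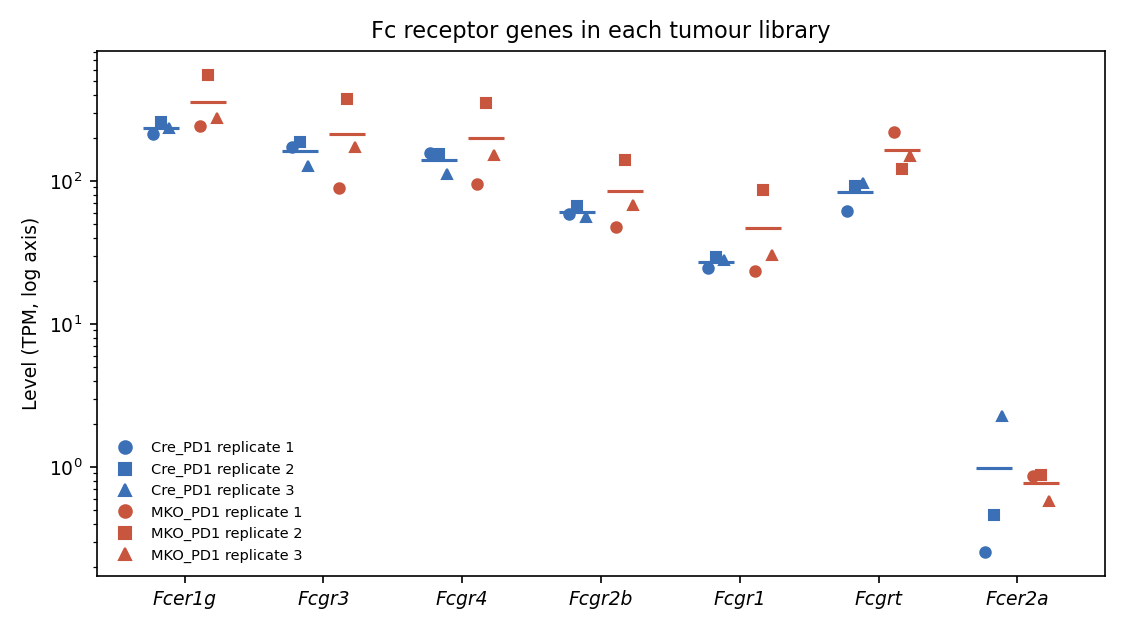
Level of the 7 Fc receptor genes in each of the 6 tumour libraries, in TPM on a log axis. Points are single libraries (blue Cre_PD1, red MKO_PD1, with 1 symbol per replicate number) and lines are group means. MKO_PD1 replicate 2 (red squares) is the highest point for Fcer1g, Fcgr3, Fcgr4, Fcgr2b and Fcgr1, while Fcgrt is highest in MKO_PD1 replicate 1 and Fcer2a lies near 1 TPM.

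Fcgr1 (ENSMUSG00000015947.10, chromosome 3, 96282909 to 96293969, minus strand of GRCm38) is the receptor that binds single IgG molecules. It was at 24.5, 29.5 and 27.8 TPM in Cre_PD1 replicates 1, 2 and 3 and at 23.3, 85.8 and 30.5 TPM in MKO_PD1 replicates 1, 2 and 3. MKO_PD1 replicate 2 lay 2.82-fold above the next library, and the other 5 libraries lay close together, with MKO_PD1 replicate 1 the lowest. The log2 difference was 0.52 (SE 0.46, 95% interval -0.53 to 1.58, limma adjusted p = 0.417). Without MKO_PD1 replicate 2 it was -0.03.

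Fcgr3 (ENSMUSG00000059498.13, chromosome 1, 171051174 to 171064935, minus strand) was the most abundant of the 3 activating receptor genes in 5 of 6 libraries on the TPM scale. Its levels were 173, 186 and 126 TPM in Cre_PD1 and 89.7, 377 and 172 TPM in MKO_PD1. The MKO_PD1 group held both the lowest and the highest library, 4.2-fold apart. The log2 difference was 0.17 (SE 0.49, limma adjusted p = 0.807) and turned to -0.36 without MKO_PD1 replicate 2. In the fit without that library the median over all tested genes was -0.66.

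Fcgr4 (ENSMUSG00000059089.4, chromosome 1, 171018920 to 171029761, plus strand) lies between Fcgr2b and Fcgr3. It was at 157, 153 and 112 TPM in Cre_PD1 and at 95.3, 349 and 151 TPM in MKO_PD1. Its order over the libraries was nearly that of Fcgr3, with MKO_PD1 replicate 1 lowest and replicate 2 highest. The log2 difference was 0.30 (SE 0.46, limma adjusted p = 0.642), and -0.21 without MKO_PD1 replicate 2. The ratio of Fcgr3 to Fcgr4 stayed between 0.941 and 1.21 in the 6 libraries, which spans 1, so their order in level is not resolved.

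Fcgr2b (ENSMUSG00000026656.15, chromosome 1, 170958617 to 170976547, minus strand), the inhibitory receptor, was at 58.4, 66.6 and 56.1 TPM in Cre_PD1 and at 47.7, 139 and 68.1 TPM in MKO_PD1. The same library was highest, and MKO_PD1 replicate 1 was again lowest. The log2 difference was 0.35 (SE 0.39, limma adjusted p = 0.521), and -0.08 without MKO_PD1 replicate 2. Exons of the predicted gene Gm38204 overlap some of its exons on the other strand, and whether counting used strand is not given in the sources used here.

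Fcer1g (ENSMUSG00000058715.11, chromosome 1, 171229572 to 171234365, minus strand) had the highest TPM of the 7 genes in each library, with merged exon lengths. It was at 214, 258 and 236 TPM in Cre_PD1 and 244, 554 and 277 TPM in MKO_PD1. Its highest and lowest libraries were 2.59-fold apart, the narrowest range of the 6 tested members. The log2 difference was 0.51 (SE 0.35, limma adjusted p = 0.318) and 0.14 without MKO_PD1 replicate 2. Relative to the median of all tested genes, the differences of Fcgr1, Fcgr3, Fcgr4, Fcgr2b and Fcer1g were 0.94, 0.59, 0.71, 0.76 and 0.92 with all libraries. Without MKO_PD1 replicate 2 that median was -0.66, below the difference of each of these genes in that fit.

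**Figure D2:**
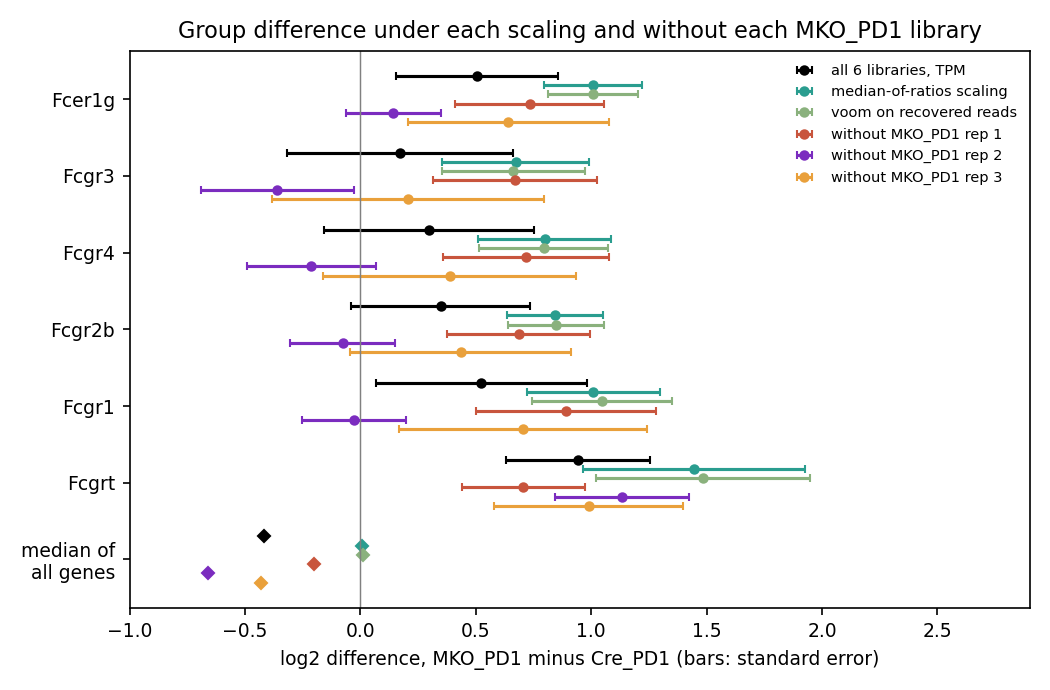
Log2 difference (MKO_PD1 minus Cre_PD1) of the 6 tested Fc receptor genes with its standard error, and the median over all genes (diamonds), for 3 ways of scaling and without each MKO_PD1 library. Without MKO_PD1 replicate 2 (purple) Fcgr3, Fcgr4, Fcgr2b and Fcgr1 lie below 0, from -0.36 to -0.03, while Fcgrt stays above 0 at each setting plotted. The median over all genes without that library is -0.66.

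Ratios of activating genes to Fcgr2b varied less between libraries than the genes themselves did. The ratio of Fcgr1 to Fcgr2b, on the TPM scale, was 0.419, 0.443 and 0.496 in Cre_PD1 and 0.489, 0.616 and 0.447 in MKO_PD1. Fcgr3 to Fcgr2b was 2.96, 2.8 and 2.25 in Cre_PD1 and 1.88, 2.7 and 2.52 in MKO_PD1. For Fcgr4 to Fcgr2b the values were 2.69, 2.3 and 2 in Cre_PD1 and 2, 2.5 and 2.22 in MKO_PD1. The groups overlapped in each of these, and the highest and lowest libraries were 1.35 to 1.58 times apart, whereas the genes themselves varied 2.92- to 4.2-fold. Fcer1g to Fcgr2b was 3.67, 3.88 and 4.2 in Cre_PD1 and 5.11, 3.97 and 4.07 in MKO_PD1, highest in MKO_PD1 replicate 1.

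The group differences in these 4 log2 ratios were 0.18 for Fcgr1, -0.18 for Fcgr3, -0.05 for Fcgr4 and 0.16 for Fcer1g. The SD between libraries of a group ranged from 0.098 to 0.278, and the exact two-sided permutation p was 0.4, 0.5, 0.7 and 0.4 (adjusted over the 4 ratios 0.667, 0.667, 0.7 and 0.667). With 3 libraries against 3 this permutation test cannot give a p below 0.1. These differences depended on single libraries. That of Fcgr1 was 0.05 without MKO_PD1 replicate 2. Those of Fcgr3 and Fcer1g were -0.02 and 0.04 when MKO_PD1 replicate 1 was left out. The direction of the Fcgr4 ratio turned without Cre_PD1 replicate 1 (0.056) and without MKO_PD1 replicate 1 (0.027).

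**Figure D3:**
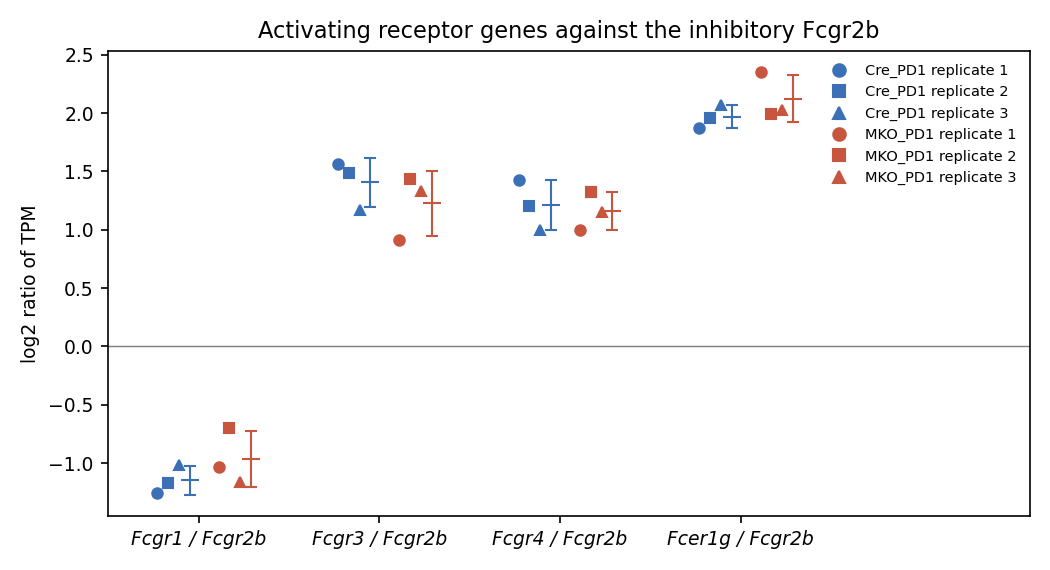
Log2 ratio of each activating gene, and of Fcer1g, to Fcgr2b in every library. Points are libraries, and the bar beside them is the group mean with its SD (n = 3). The groups overlap for all 4 ratios, and Fcer1g to Fcgr2b is highest in MKO_PD1 replicate 1, at 5.11 on the linear scale.

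The proportion of Fcgr2b depended on the length used for it. Of the summed TPM of the 4 IgG receptor genes, Fcgr2b took 15.6 ± 1.66% in Cre_PD1 and 16.5 ± 2.01% in MKO_PD1 (SD, n = 3). Its merged exons span 5790 bases, against 1736 for Fcgr3 and 1256 for Fcgr4, and the annotation of Fcgr2b includes retained-intron transcripts. Complete coding transcripts of Fcgr2b range from 1084 to 3544 bases. With the longest coding transcript of each gene the share was 20.9 ± 2.12% and 22.1 ± 2.61%. Fcgr3 and Fcgr4 then stayed above Fcgr2b in every library, at 1.48 to 2.34 and 1.22 to 1.65 times its level. With the shortest the share was 46.1 ± 3.16% and 47.9 ± 3.75%, and Fcgr2b then exceeded Fcgr3 and Fcgr4 in every library. Each setting divides all reads counted for a gene by that length, including any reads that lie outside that transcript. These lengths were chosen after seeing the data. The files do not resolve transcripts, so the order of levels between Fcgr2b and the activating genes is not settled by them. On the count of reads, Fcgr2b had more than Fcgr3 in each library, for example 3440 against 3054 in Cre_PD1 replicate 1.

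Fcgr2b and Fcgr3 are close relatives, and reads from stretches they share could be counted to either or dropped. Of the 50-base windows of Fcgr3 transcripts, 166 of 1733 (9.58%) also occur in Fcgr2b. At 100 bases 44 of 1733 (2.54%) do, and at 150 bases 0 do. No 50-base window was shared between any other pair of the 7 members. Read length is not given in the sources used here.

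Fcer1g moved with macrophage markers over the libraries, and Fcgr3 did so less closely. Over the 6 libraries Pearson's r of Fcer1g with the mean of the macrophage markers was 0.992, and 0.959 over the 5 libraries without MKO_PD1 replicate 2. The ratio of Fcer1g to the geometric mean of those markers stayed between 2.06 and 2.3. That list includes Tyrobp. For Fcgr3 the same r was 0.8, and 0.141 without that library. With the mean of the monocyte markers the r of Fcgr3 was 0.944, and 0.818 without MKO_PD1 replicate 2. For Fcer1g these values were 0.853 and -0.0037. With the neutrophil markers Fcer1g had 0.926 and 0.877, and Fcgr3 had 0.67 and -0.036. Fcgr3 against the macrophage markers was lowest in MKO_PD1 replicate 1, at 0.817, and ran from 1.10 to 1.82 in Cre_PD1. Correlations here are descriptions over 6 libraries that share depth and tissue content, with most of the spread in 1 library.

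Of all pairs of members, Fcgr3 and Fcgr4 had the highest r (r = 0.985, and 0.981 without MKO_PD1 replicate 2). Against Adgre1, the macrophage gene for F4/80, Fcgr4 had a ratio of 5.12, 4.09 and 2.48 in Cre_PD1 and 1.18, 4.80 and 2.17 in MKO_PD1. Kupffer cell markers, of the resident macrophages of liver, summed to 2540, 558 and 1646 TPM in MKO_PD1 and to 280 to 641 TPM in Cre_PD1. They were thus high in MKO_PD1 replicates 1 and 3, where Fcgr3 and Fcgr4 were not. Fcgr1 was close to Fcgr2b (r = 0.982, and 0.874 without MKO_PD1 replicate 2). The part of cell content in these levels was not tested.

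**Figure D4:**
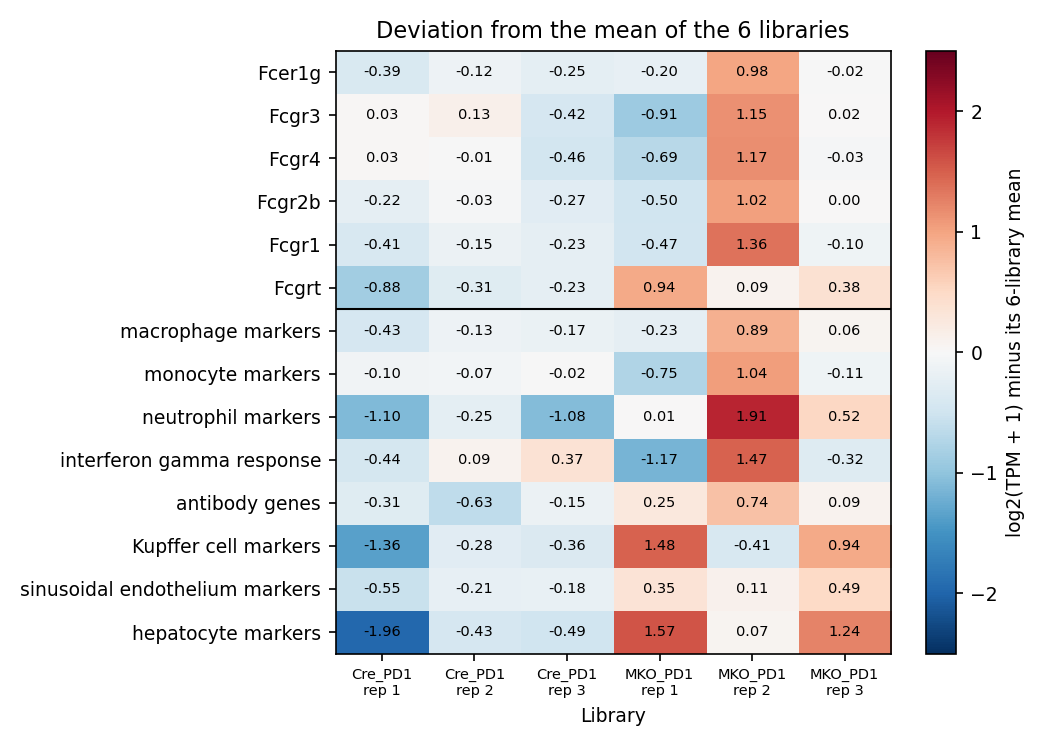
Each cell gives log2(TPM + 1) in a library minus its mean over the 6 libraries, for the 6 tested Fc receptor genes (above the line) and for the mean of marker and pathway lists (below it). The receptor genes from Fcer1g to Fcgr1 peak in MKO_PD1 replicate 2 with the macrophage, monocyte, neutrophil and interferon gamma response rows, and Fcgrt follows the Kupffer cell, endothelium and hepatocyte rows, which are high in MKO_PD1 replicates 1 and 3. In summed TPM the monocyte markers do not peak there, at 949 in MKO_PD1 replicate 2 against 1015 to 1562 in Cre_PD1.

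Fcgrt (ENSMUSG00000003420.8, chromosome 7, 45092990 to 45103851, minus strand) was highest in another library than the IgG receptor genes. Its levels were 61.8, 92.3 and 97.4 TPM in Cre_PD1 and 221, 122 and 149 TPM in MKO_PD1. Each MKO_PD1 library lay above each Cre_PD1 library, with replicate 1 the highest. Its log2 difference was 0.94 (SE 0.31, 95% interval 0.22 to 1.67), short of the threshold (limma adjusted p = 0.168). Without MKO_PD1 replicate 2 it was 1.13 and passed (limma adjusted p = 0.0297), in a fit where 7.88% of all genes passed as higher and 38.0% as lower. Without MKO_PD1 replicate 1 it was 0.71 (limma adjusted p = 0.229).

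Hepatocyte markers moved with Fcgrt (r = 0.974 over the 6 libraries), and so did Kupffer cell markers (0.956). The 11 sinusoidal endothelium markers summed to 240 to 246 TPM in Cre_PD1 and to 314 to 356 TPM in MKO_PD1, and their r with Fcgrt was 0.917. Albumin is the other cargo of the receptor, and Alb was at 5286, 8792 and 8944 TPM in Cre_PD1 and 62624, 12212 and 40289 TPM in MKO_PD1. Fcgrt varied less than Alb, and its ratio to Alb was 0.00353 and 0.0037 in MKO_PD1 replicates 1 and 3, against 0.00998 to 0.0117 in the other 4 libraries. B2m, the light chain that Fcgrt pairs with, was at 9181 ± 1040 TPM in the controls and 7739 ± 2821 TPM in the knockouts. Its log2 difference was -0.30 (limma adjusted p = 0.641), was -0.58 without MKO_PD1 replicate 2 and turned to 0.20 under median-of-ratios scaling. How much of the Fcgrt level came from hepatocyte content was not tested.

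Genes of IgE binding were near the limit of these libraries. Fcer2a (ENSMUSG00000005540.10, chromosome 8, 3681737 to 3694175, minus strand) was at 0.254, 0.458 and 2.25 TPM in Cre_PD1 and 0.863, 0.874 and 0.581 TPM in MKO_PD1. These levels rest on 8, 17 and 61 reads and on 35, 27 and 19 reads, and the gene was too low to be tested. Cre_PD1 replicate 3 was the highest, and the 10 B cell markers also summed highest there, at 38.0 TPM against 9.51 to 27.0 TPM in the other libraries. Chosen after their values were seen, the genes of the alpha and beta subunits of the high-affinity IgE receptor, Fcer1a and Ms4a2, also had few reads, whereas its gamma subunit is Fcer1g. For Fcer1a the Cre_PD1 libraries gave 5, 10 and 3 reads and the MKO_PD1 libraries 3, 27 and 9, and Ms4a2 had 4, 6 and 9 against 10, 12 and 11. Mast cell and basophil markers summed to 12 to 32.9 TPM in Cre_PD1 and to 22.9, 85.8 and 25.9 TPM in MKO_PD1.

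Other receptors for antibodies, listed together with B2m, gave 7 tested genes of 13. Of these 7, 0 passed the limma test in either direction. An unadjusted p under 0.05 was found for 1 of the 7, against 4612 of all 16506 genes tested. The median log2 difference was 0.14, against -0.42 for all genes, and 0 of the 7 had groups that did not overlap, against 39.0% of all genes tested. Among the 6 that were too low to test, Fcrls, named after its values were seen, was lower in each MKO_PD1 library, at 0.163 to 0.6 TPM against 0.607 to 1.47 TPM. Its levels rest on only 5, 14 and 5 reads in MKO_PD1 and on 19, 17 and 30 reads in Cre_PD1. Of all genes tested, 28.9% lay lower without overlap. Pigr, which carries IgA and IgM across epithelium and is made by bile duct epithelium and liver, reached 48.3, 157 and 218 TPM in Cre_PD1 and at 575, 195 and 508 TPM in MKO_PD1. Like Fcgrt it was highest in MKO_PD1 replicates 1 and 3 (limma adjusted p = 0.168 for a log2 difference of 1.69, SE 0.62). For Pigr without MKO_PD1 replicate 2 the difference was 2.18 and passed (limma adjusted p = 0.0323), where 7.88% of all genes passed as higher.

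Genes of antibodies were higher in MKO_PD1 on average without passing the test. IgG and IgE are the ligands of the family, and the list also holds genes of IgA and IgM. Of 11 genes 10 were tested, 0 passed the limma test and 5 had an unadjusted p under 0.05. Such a p was found for 4612 of all 16506 genes tested. All 10 antibody genes tested had a log2 difference above 0 (27.1% of all genes did). Groups did not overlap for 5 of the 10, against 10.1% of all genes in that direction. Ighg2b was the only IgG heavy chain gene among those 5. The median log2 difference of the 10 was 0.87, against -0.42 for all genes. Igkc, the kappa light chain, was at 230, 140 and 258 TPM in Cre_PD1 and at 294, 517 and 358 TPM in MKO_PD1 (limma adjusted p = 0.168). Jchain, which joins IgA and IgM units, was at 10.7 ± 2.63 and 23.4 ± 9.21 TPM. Ighg2b, a subclass that Fcgr4 binds, was at 8.58 ± 3.40 and 15.7 ± 4.14 TPM (limma adjusted p = 0.173). Ighg2c, another ligand of Fcgr1 and Fcgr4, was at 25.4, 12.4 and 13.3 TPM and at 24.4, 69.8 and 20.6 TPM (limma adjusted p = 0.210), and its groups overlapped. Its log2 difference was 0.98, and 0.45 without MKO_PD1 replicate 2. The lambda gene Iglc1 was at 8.02 ± 1.90 and 19.7 ± 7.64 TPM. Constant-region genes resemble each other, so how reads were divided between them is uncertain.

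Of 22 genes that carry the ITAM signal, 0 passed the limma test (1 at an unadjusted p under 0.05), 17 had a difference above 0, and 20 were highest in MKO_PD1 replicate 2, as were 23.3% of all genes. The median log2 difference was 0.46, against -0.42 for all genes, of which 27.1% had a difference above 0. An unadjusted p under 0.05 was reached by 4612 of all 16506 genes tested. Lyn, a Src-family kinase that phosphorylates the motif, was at 38.5, 40.1 and 41.4 TPM in Cre_PD1 and 47.0, 85.6 and 52.2 TPM in MKO_PD1 (limma adjusted p = 0.211). Lyn was 1 of 3 of the 22 genes that lay higher in MKO_PD1 without overlap, as did 10.1% of all genes tested. Lower without overlap lay 1 of the 22, against 28.9% of all genes tested. The adaptor gene Lcp2 was at 16.0 ± 2.27 and 28.7 ± 14.0 TPM. Tyrobp, the chain used by Trem2, was at 219, 290 and 230 TPM in Cre_PD1 and 276, 614 and 311 TPM in MKO_PD1, and the ratio of Fcer1g to Tyrobp was highest in Cre_PD1 replicate 3, 1.16 times its lowest value of 0.883. Src, which many cell types express, had lower levels in MKO_PD1, at 122, 109 and 130 against 14.7, 83.3 and 54.1 TPM (log2 difference -1.53, SE 0.56, limma adjusted p = 0.168). With MKO_PD1 replicate 2 left out, the difference of Src was -2.04 and passed (limma adjusted p = 0.0292), where 38.0% of all genes passed as lower. The differences of Lyn, Lcp2 and Tyrobp then went from 0.56, 0.72 and 0.62 to 0.30, 0.35 and 0.26.

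The 8 genes of inhibitory signalling had a median log2 difference of -0.62, against -0.42 for all genes. Of the 8, 3 were above 0, as were 27.1% of all genes, and 0 passed the limma test. At an unadjusted p under 0.05, 2 of the 8 passed, against 4612 of all 16506 genes tested. Dok2, an adaptor of blood cells that restrains Ras, was at 15.6, 22.6 and 20.3 TPM in Cre_PD1 and at 31, 44.9 and 29.1 TPM in MKO_PD1, which gave a limma adjusted p of 0.168 (log2 difference 0.80, SE 0.28). Ptpn6, the phosphatase SHP-1 of blood cells, was at 48.3 ± 7.90 and 75.4 ± 31.1 TPM. Its log2 difference was 0.57, and 0.26 without MKO_PD1 replicate 2. Inpp5d, the SHIP1 phosphatase that Fcgr2b recruits, was at 11.6, 10.7 and 13.7 TPM and at 9.38, 29.1 and 13.5 TPM (log2 difference 0.35, limma adjusted p = 0.538). It was named after its values were seen. Ptpn11, the phosphatase SHP-2, had a log2 difference of -0.64 (limma adjusted p = 0.233). The groups overlapped for both, and with MKO_PD1 replicate 2 left out they were at -0.08 and -0.93, the latter past the threshold (limma adjusted p = 0.0442). Dok1, related to Dok2, was at 115, 89.6 and 92.2 TPM and at 21.6, 71.0 and 39.0 TPM (log2 difference -1.30, limma adjusted p = 0.168). Inppl1, the phosphatase SHIP2, was at 66.3 ± 9.92 and 40.2 ± 17.9 TPM (log2 difference -0.79). Left without MKO_PD1 replicate 2, the differences of Dok1 and Inppl1 were -1.72 and -1.11 and passed (limma adjusted p = 0.029 and 0.0293). In that fit, which also gave the -0.93 of Ptpn11, 38.0% of all genes passed as lower.

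Interferon gamma induces Fcgr1 and Fcgr4 in myeloid cells, and 12 genes of that response were examined beside them. All 12 were highest in MKO_PD1 replicate 2, as were 23.3% of all genes. Of the 12, 0 passed the limma test or an unadjusted p under 0.05, whereas 4612 of all 16506 genes tested passed the latter. The median log2 difference of the 12 was -0.03, against -0.42 for all genes. Gbp2, an interferon-induced GTPase, was at 376, 667 and 725 TPM in Cre_PD1 and 189, 1811 and 453 TPM in MKO_PD1. Nos2, which makes nitric oxide, was at 25.6, 41.0 and 24.5 TPM and at 14.7, 169 and 49.3 TPM. Ido1, which breaks down tryptophan, was at 217, 302 and 320 TPM and at 51.2, 483 and 123 TPM. Its log2 difference was -0.92 (limma adjusted p = 0.363). That of Ido1 was -1.78 and passed (limma adjusted p = 0.029) once MKO_PD1 replicate 2 was left out, while leaving out replicate 1 gave -0.18. In the fit without replicate 2, 38.0% of all genes passed as lower. Gbp2 and Nos2 were at -0.08 and 0.75, and at -0.95 and -0.12 without MKO_PD1 replicate 2. MKO_PD1 replicate 1 was the lowest library for each of these 3 genes, as it was for the 4 IgG receptor genes.

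The genes most like each member over the 6 libraries differed between the IgG receptors and Fcgrt. Among 10797 protein-coding genes with a mean of at least 5 TPM, Fcgr1 was most like Gmfg (Pearson r = 0.996) and Aoah (0.996). Fcgr3 was most like Cd53 (0.991), a tetraspanin of leukocytes, Gtf2a2 (0.988) and Gda (0.986). Fcgr4 was most like Gda (0.998), Fcgr3 itself (0.985) and Sirpb1c (0.981). Fcgr2b was most like Emb (0.998) and Glipr2 (0.994). Fcer1g was most like the kinase gene Fyn (0.998), Ripk3 (0.998) and Tigar (0.995). Fcgrt was most like Stbd1 (0.998), a glycogen-binding protein, 1110032A03Rik (0.998) and Smagp (0.998). Without MKO_PD1 replicate 2 these values ranged from 0.909 to 0.999. These genes were picked as the highest of 10797 values for each member, over only 6 libraries. An r above 0.99 was reached by 8 genes for Fcgr1, 1 for Fcgr3 and 1 for Fcgr4. For Fcgr2b, Fcer1g and Fcgrt it was reached by 10, 8 and 19 genes.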

How the data were processed

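The deposited table gives 1 value per gene for each of 6 libraries (3 Cre_PD1, 3 MKO_PD1). Per the submitters' processing notes, STAR 2.7.10a, mm10 and featureCounts 2.0.3 were used. The deposited signal, read density over exon length, is named TPM by the authors, but its column sums ran from 70363 to 105281. Each column was rescaled to 1000000. Value times merged exon length (GENCODE M21), divided by 8.03, was a whole number of reads within 0.001 for 98.5% of 29802 genes above 0, and gave the read counts printed. One read per kb is 0.0763 to 0.114 TPM.

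The filter kept genes reaching 1 TPM in 3 or more libraries, which were compared as log2(TPM + 1) with limma 3.58.1 in R 4.3.3 (trend, no block, Benjamini-Hochberg over all tested genes, threshold 0.05). Ratios to Fcgr2b used exact two-sided permutation over 20 splits. The limma fit, and not the permutation test, was also run on simulated counts (dispersion 0.05) without an outlying library. That run cannot show how the fit behaves with a library such as MKO_PD1 replicate 2. Members and lists were chosen with earlier results of these data known. Named context genes are among the up to 6 of smallest unadjusted p in each list, or its highest. Exceptions are Inpp5d, Fcer1a, Ms4a2 and Fcrls, which were named after their values were seen. The genes most like a member are those among the 3 of highest Pearson r, and some genes that these rules select are not reported here. Alternatives changed the pseudocount, filter, scaling, trend, unit and libraries. The column of MKO_PD1 replicate 2 is spelled with a Cyrillic letter and was matched by its library name. Folds on the log2(TPM + 1) scale understate low genes. The design text counts mice, so p-values measure the spread between mice.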

Additional observations from a re-analysis of the deposited data

How the results depend on the processing

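Across 30 genes named, 478 gene values under alternatives were computed, of which 450 kept their direction and their side of the threshold, 18 turned direction and 10 came to pass the test. All 10 did so without MKO_PD1 replicate 2. The 2 genes called in all became 0 without a filter, with a filter of 5 TPM, with quantile normalization, with voom on recovered reads and with the replicate block, and 1 under median-of-ratios scaling, and ranged from 0 to 7314 without 1 library. The number of Fc receptor genes called was 0 under each alternative with all libraries, and from 0 to 1 without 1 library. Same-numbered libraries did not deviate together (r of deviations -0.42, -0.26 and 0.05), so the numbers do not show a pairing, and with the replicate block no Fc receptor gene was called (Fcgrt adjusted p = 0.246). Without 1 library the log2 difference ranged from -0.027 to 0.89 for Fcgr1, -0.36 to 0.67 for Fcgr3, -0.21 to 0.72 for Fcgr4, -0.077 to 0.69 for Fcgr2b, 0.14 to 0.73 for Fcer1g, 0.71 to 1.13 for Fcgrt, -0.0799 to 0.69 for Inpp5d, -1.78 to -0.18 for Ido1, -0.12 to 1.60 for Nos2 and -0.95 to 0.68 for Gbp2. The Fcgr4 ratio to Fcgr2b ranged from -0.16 to 0.056. Median-of-ratios scaling moved the median of all genes to 0.0056 and the differences of Fcgr1, Fcgr3, Fcgr4, Fcgr2b, Fcer1g and Fcgrt to 1.01, 0.67, 0.80, 0.84, 1.01 and 1.44, none of them called. Direction turned for Trem2 under that scaling (0.018) and with voom (0.024), for B2m (0.20 and 0.20), and for Gbp2 (0.43 and 0.38, 0.056 with quantile normalization and 0.0052 with hepatocyte markers removed). The share of Fcgr2b, with lengths chosen after seeing the data, was 20.9 and 46.1% in Cre_PD1 and 22.1 and 47.9% in MKO_PD1 with the longest and the shortest coding transcript. The cause of these turns was not tested. Fcer2a was tested only without a filter (-0.04, adjusted p = 0.965). Depth limits Fcer2a, Fcer1a, Ms4a2 and Fcrls, which had 3 to 61 reads in a library.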
